A study of Homo sapiens with 9 samples.

Results

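The proteasome is the cell's main protease for proteins tagged with ubiquitin, and the 48 human genes described here encode its subunits, activators, inhibitor and assembly chaperones. They were chosen by symbol: every gene named PSMA, PSMB, PSMC, PSMD, PSME, PSMF or PSMG followed by a digit, which took 50 of the 20435 genes measured. PSMC3IP and PSME3IP1 fit the pattern by name only and are kept apart. Each gene was represented by the coding span (start to stop codon, introns included) with the highest mean value, and 46 of the 48 passed the filter on low values. PSMA8 and PSMB11 did not.

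RNA was measured in PC9 cells, a human lung adenocarcinoma line that carries an activating EGFR mutation and depends on EGFR signalling, which the drug osimertinib blocks. All cells stably carried FUCCI4, a reporter that colours cells by cell cycle phase, and all were fixed with glyoxal, permeabilised with saponin and sorted on DNA content and reporter before poly(A) RNA was sequenced. At day 28, after continuous 500 nM osimertinib in DMSO, there were 2 libraries of G1 cells (clones 1 and 7), 1 of S and 1 of G2 cells (both clone 1). At day 0, untreated according to the labels, there were 2 libraries of G1 cells and 2 of S cells (clones 1 and 7 each) and 1 of G2 cells (clone 1). No library held cells kept to day 28 without the drug. Effects of osimertinib, of DMSO and of 28 days in culture thus cannot be told apart. Nothing says whether libraries of 1 clone came from separate cultures, so p-values measure the spread between these 9 libraries, which may be technical, and only 2 clones stand behind them. Values below are the deposited log2 values, given for treated libraries in the order G1 of clone 1, G1 of clone 7, S, G2, and for untreated libraries in the order G1 of clone 1, G1 of clone 7, S of clone 1, S of clone 7, G2.

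The 20S core of the proteasome is a barrel of stacked rings: outer rings of alpha subunits that gate the entrance and inner rings of beta subunits, 3 kinds of which cut proteins. The 19S cap sits on the barrel, recognises ubiquitin, removes it, and feeds the unfolded chain into the core by its ring of ATPases. PSME proteins are caps of another kind that open the core without ATP. Under interferon, cells replace the 3 cutting subunits by PSMB8, PSMB9 and PSMB10, which makes the immunoproteasome and changes the peptides offered to T cells. The transcription factor NFE2L1 drives the subunit genes together through antioxidant response elements, and cancer cells often run the system at high capacity.

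Promoter sequences of 6 genes are shown, because they belong to the genes that fell most in each class (PSMA2 in the core, PSMD2 in the cap, PSME3 among activators) and to the 3 immunoproteasome genes, whose fold changes were the smallest in the core. They come from RefSeq (GRCh38.p14), run 5′ to 3′ on the gene's strand from 250 bases before to 50 bases after the transcript start, and lie at chr7:42932125-42932424 (minus strand), chr3:184298991-184299290 (plus), chr17:42833147-42833446 (plus), chr6:32843998-32844297 (minus), chr6:32853942-32854241 (plus) and chr16:67936801-67937100 (minus). Where a gene had several windows, the one with the most motif matches is shown. Capitals mark matches, on either strand, to 3 motifs. They are TGACNNNGC, the core of the antioxidant response element, CCAAT, the NF-Y box, and GAAA followed by any 2 bases and GAAA. The last is the core of the interferon-stimulated response element.
PSMA2: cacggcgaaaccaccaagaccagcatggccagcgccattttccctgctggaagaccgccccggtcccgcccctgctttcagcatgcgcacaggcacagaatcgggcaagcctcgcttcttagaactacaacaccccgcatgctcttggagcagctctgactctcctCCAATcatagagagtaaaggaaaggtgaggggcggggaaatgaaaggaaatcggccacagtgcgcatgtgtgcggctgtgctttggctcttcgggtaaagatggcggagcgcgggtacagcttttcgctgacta
PSMD2: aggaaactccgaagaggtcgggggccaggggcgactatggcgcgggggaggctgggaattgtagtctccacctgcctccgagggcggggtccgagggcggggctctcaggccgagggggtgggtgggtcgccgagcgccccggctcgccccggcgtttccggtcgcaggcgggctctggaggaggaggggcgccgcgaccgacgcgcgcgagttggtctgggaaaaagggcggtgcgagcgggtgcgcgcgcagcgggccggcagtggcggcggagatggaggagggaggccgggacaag
PSME3: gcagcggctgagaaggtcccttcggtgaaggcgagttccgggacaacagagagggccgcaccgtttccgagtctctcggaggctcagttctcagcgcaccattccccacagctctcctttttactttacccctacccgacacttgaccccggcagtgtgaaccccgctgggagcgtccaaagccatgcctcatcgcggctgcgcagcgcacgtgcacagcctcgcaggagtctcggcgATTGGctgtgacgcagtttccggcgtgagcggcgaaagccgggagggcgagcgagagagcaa
PSMB8: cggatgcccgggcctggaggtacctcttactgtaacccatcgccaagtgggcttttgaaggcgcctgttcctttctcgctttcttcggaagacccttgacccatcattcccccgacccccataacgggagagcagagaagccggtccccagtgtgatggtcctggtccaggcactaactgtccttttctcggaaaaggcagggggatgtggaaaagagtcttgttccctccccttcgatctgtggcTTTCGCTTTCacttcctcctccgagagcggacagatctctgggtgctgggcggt
PSMB9: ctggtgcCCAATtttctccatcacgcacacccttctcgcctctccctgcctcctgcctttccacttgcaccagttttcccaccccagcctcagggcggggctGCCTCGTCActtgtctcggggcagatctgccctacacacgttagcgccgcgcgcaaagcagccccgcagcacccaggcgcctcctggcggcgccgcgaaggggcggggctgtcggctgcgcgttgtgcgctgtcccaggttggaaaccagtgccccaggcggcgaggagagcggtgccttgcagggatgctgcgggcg
PSMB10: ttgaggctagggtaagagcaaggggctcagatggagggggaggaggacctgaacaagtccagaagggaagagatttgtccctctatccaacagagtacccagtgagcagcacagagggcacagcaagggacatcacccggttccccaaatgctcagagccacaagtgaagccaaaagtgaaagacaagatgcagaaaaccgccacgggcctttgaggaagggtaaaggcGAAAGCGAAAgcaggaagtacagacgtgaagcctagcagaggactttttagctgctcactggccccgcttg

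Of the 48 genes, 42 had such a window, and no motifs overlapped in those shown. A gene counted as carrying a motif if any of its windows held it, for members and all genes alike. TGACNNNGC occurred in 15 of the 42 (35.7%), against 19.5% of the tested genes with a window and 16.1% of all genes with one. CCAAT occurred in 20 of 42 (47.6%), against 43.6% and 39.7%. The interferon-stimulated core occurred in 7 of 42 (16.7%), against 3.87% and 4.38%, and these 7 were PSMA4, PSMB4, PSMB8, PSMB10, PSME1, PSME2 and PSMG4. PSMB8 and PSMB10 carried it 4 and 21 bases before the start of the window's transcript. The PSMB8 window lies inside the coding span measured for that gene (32840959 to 32844413, minus strand). Its start is thus downstream of that span's start codon and belongs to another transcript than the one measured. PSMB9 did not carry these letters in its window, and PSMD2 carried none of the 3 motifs. Among tested members, the median log2 fold change at day 28 was -0.77 for the 15 with TGACNNNGC and -1.16 for the 25 without, -1.22 for the 19 with CCAAT and -0.93 for the 21 without, and -0.81 for the 7 with the interferon-stimulated core and -1.16 for the 33 without. A match describes the letters only.

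After 28 days of osimertinib, RNA of nearly the whole proteasome was lower than in untreated cells. With phase as a term in the model, 40 of the 46 genes tested fell, none rose, and the median log2 fold change was -1.15, a 2.22-fold lower level (limma, Benjamini-Hochberg adjusted p under 0.05 over 12385 genes). Of all genes tested, 26.6% were called lower and 28.5% higher, and their median was 0.01. By role, all 14 constitutive core subunits, 18 of 20 cap genes, all 4 activators and the inhibitor fell, but only 1 of 3 immunoproteasome subunits and 2 of 4 core chaperones. In 35 of the 46 every day 28 library lay below every day 0 library, which 18.9% of all genes did, and in the other 11 the groups overlapped. The proteasome genes have shorter spans and more reads than most: their median span was 12.0 kb, against 25.8 kb for all tested, and their median mean log2 value 13.62, against 11.13. Among the 580 other genes inside the members' middle ranges of span (7.11 to 26.7 kb) and mean level, 55.9% were called lower. Their median log2 fold change was -0.63, so a fall was common for genes of this kind. Only 11 of the 46 members themselves lay inside both ranges. Across the 46 members, the fold change had a Spearman correlation of -0.09 with span and -0.21 with mean level, a description over genes that share the same libraries.

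As a share of all reads outside the mitochondrial genome, the proteasome genes took 6.16, 7.54, 8.25 and 8.50 reads per 1000 at day 28, against 12.4, 12.3, 12.0, 13.1 and 13.3 per 1000 at day 0. The means were 7.62 ± 1.05 (SD, n = 4) and 12.6 ± 0.565 (SD, n = 5), and no day 28 library reached the lowest day 0 library. The core took 2.75 ± 0.394 per 1000 at day 28 and 4.96 ± 0.380 at day 0, the cap 4.01 ± 0.587 and 6.60 ± 0.451, and the activators 0.389 ± 0.0750 and 0.567 ± 0.0362. The immunoproteasome subunits took 0.165 ± 0.0287 per 1000 at day 28 and 0.157 ± 0.0338 at day 0, ranges that overlapped. Counts are relative to the library, so fewer cells that use a gene and less of its RNA per cell cannot be told apart.

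**Figure D1:**
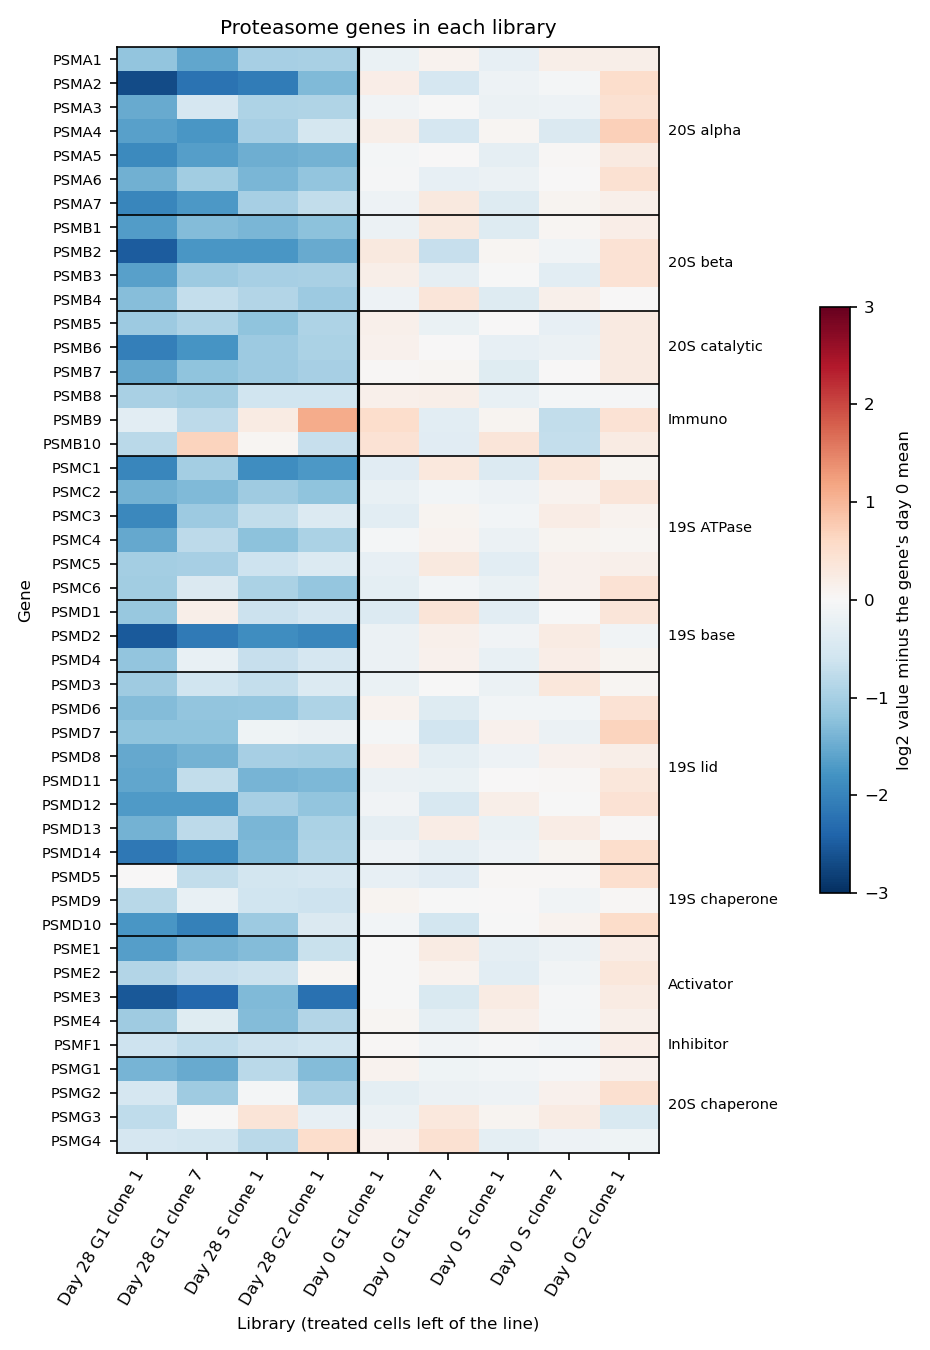
Log2 value of each proteasome gene in each library minus the gene's day 0 mean, with the 4 day 28 libraries left of the line and the 5 day 0 libraries right of it (blue lower, red higher), grouped by role. Nearly every row is blue at day 28, while PSMB9, PSMB10, PSMD1, PSMD5, PSME2, PSMG3 and PSMG4 mix colours.

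The libraries differed in other ways too. They held 8.83 M (day 0 G1 clone 7) to 108.7 M reads, and a tested member had 113 to 155455 reads in a library. Transcripts of the mitochondrial genome took 19.6, 8.61, 21.6 and 15.8% of reads at day 28, against 6.07 to 10.7% at day 0. Reads over olfactory receptor genes, which these cells should not use, lay at 0.00820 to 0.0273 per kb per M at day 28, against 0.00112 to 0.00492 at day 0. All 7 epithelial markers were present, at 15434 to 25709 reads per M reads (M for mega) in sum at day 28 and 20482 to 31565 at day 0. The 5 leukocyte markers summed to 2.95 to 4.34 per M at day 28 and 5.33 to 13.5 at day 0, the 5 fibroblast markers to 18.1 to 51.3 and 13.4 to 18.4, the 3 endothelial markers to 3.71 to 10.6 and 6.72 to 12.4, and none of these markers was without a read in every library. With each library's read density over olfactory receptor genes subtracted from every gene, all 46 tested members kept their direction and call, adjusted for phase. The part of the other differences in the results was not tested.

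The alpha subunits form the outer rings of the core. All 7 tested fell, by a median of 1.28 on the log2 scale, and the groups did not overlap for any of them. PSMA2 had log2 values of 10.73, 11.19, 11.32 and 12.10 at day 28, against 13.62, 12.90, 13.26, 13.36 and 13.93 at day 0. All day 28 libraries lay below all day 0 libraries, with the lowest value in G1 clone 1, and the log2 fold change of -2.10 was the largest fall in the whole set (limma, SE 0.21, adjusted p = 4.29e-05). PSMA2 lies inside a read-through gene of the same strand that covers all 7.39 kb of its span, so reads of both enter its value. PSMA5 had log2 values of 14.22, 14.48, 14.67 and 14.70 at day 28, against 16.08, 16.14, 15.86, 16.17 and 16.41 at day 0. Its values were close together within each day, and it fell 3.08-fold (log2 fold change -1.62, SE 0.18, adjusted p = 6.99e-05). The smallest changes were those of PSMA3 and PSMA1. PSMA3 had log2 values of 13.38, 14.38, 13.96 and 13.98 at day 28, against 14.78, 14.87, 14.70, 14.73 and 15.35 at day 0, so that G1 clone 7 came closest to the untreated cells and day 0 G2 stood highest (log2 fold change -0.98, SE 0.22, adjusted p = 0.00328). PSMA1 had log2 values of 13.43, 13.06, 13.62 and 13.63 at day 28, against 14.41, 14.70, 14.35, 14.78 and 14.79 at day 0, with G1 clone 7 the lowest (log2 fold change -1.16, SE 0.18, adjusted p = 0.000438). Another gene of the same strand shares 9357 bases of the PSMA1 span. PSMA4, PSMA6 and PSMA7 lay between, at -1.23, -1.28 and -1.35.

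PSMB1 to PSMB4, beta subunits that do not cut, all fell, with no overlap between the days. PSMB2 had log2 values of 11.55, 12.30, 12.30 and 12.54 at day 28, against 14.35, 13.36, 14.12, 13.95 and 14.49 at day 0, and dropped most in G1 clone 1 (log2 fold change -1.87, limma SE 0.24, adjusted p = 0.000142). PSMB1 had log2 values of 13.08, 13.44, 13.37 and 13.52 at day 28, against 14.58, 15.05, 14.36, 14.82 and 14.94 at day 0, a narrow range at day 28 (log2 fold change -1.42, SE 0.19, adjusted p = 0.000192). PSMB3 had log2 values of 13.48, 14.04, 14.12 and 14.13 at day 28, against 15.30, 14.86, 15.10, 14.79 and 15.55 at day 0, and day 28 G1 clone 1 stood apart as the lowest (log2 fold change -1.19, SE 0.20, adjusted p = 0.000702). PSMB4 had log2 values of 14.71, 15.28, 15.11 and 14.89 at day 28, against 15.82, 16.35, 15.61, 16.15 and 15.999 at day 0, the smallest gap of the 4 (log2 fold change -0.998, SE 0.22, adjusted p = 0.00266). Its call did not hold under quantile scaling, where it was -0.38 (adjusted p = 0.0908).

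The 3 cutting subunits fell to between 36.0% and 47.7% of their untreated level. PSMB6, the caspase-like subunit, had 12.44, 12.71, 13.39 and 13.53 at day 28, against 14.63, 14.50, 14.25, 14.31 and 14.77 at day 0. S and G2 stood above G1 at day 28 but all 4 lay below every day 0 library (log2 fold change -1.47, limma SE 0.22, adjusted p = 0.000283). PSMB7, the trypsin-like subunit, had 13.88, 14.20, 14.31 and 14.42 at day 28, against 15.45, 15.46, 15.04, 15.41 and 15.68 at day 0. Both days were tight and far apart (log2 fold change -1.22, SE 0.18, adjusted p = 0.000324). PSMB5, the chymotrypsin-like subunit and the main target of proteasome inhibitor drugs, had 12.84, 12.996, 12.73 and 13.01 at day 28, against 14.09, 13.74, 13.94, 13.68 and 14.21 at day 0. Its 4 treated values differed by little and again lay below all untreated ones (log2 fold change -1.07, SE 0.17, adjusted p = 0.000441).

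The immunoproteasome subunits, which take the places of these 3, had the smallest fold changes of the core. PSMB8, which replaces PSMB5, had 11.70, 11.63, 12.07 and 12.07 at day 28, against 12.81, 12.85, 12.45, 12.60 and 12.63 at day 0. It fell 1.75-fold with no overlap (log2 fold change -0.81, limma SE 0.19, adjusted p = 0.00431). PSMB9, which replaces PSMB6, had 10.51, 10.03, 11.06 and 11.93 at day 28, against 11.36, 10.51, 10.90, 10.08 and 11.24 at day 0. The days overlapped widely: G2 at day 28 was the highest of all and G1 clone 7 the lowest, and the fold change of 0.03 was not called (SE 0.32, adjusted p = 0.948) and changed sign between alternatives. PSMB10, which replaces PSMB7, had 11.83, 13.29, 12.69 and 11.93 at day 28, against 13.07, 12.30, 12.99, 11.92 and 12.87 at day 0. G1 clone 7 was the highest of all libraries at day 28, while the 3 clone 1 libraries lay below their day 0 counterparts, so the pooled log2 fold change was -0.20 (SE 0.35, adjusted p = 0.636), and within clone 1 alone it was -0.83 (adjusted p = 0.00698). A gene of the same strand shares 336 bases of the PSMB10 span.

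Because a called fall in PSMB6 and an uncalled change in PSMB9 do not by themselves differ, the log2 ratio of each immunoproteasome subunit to the one it replaces was compared between days, a comparison chosen after the values were seen. Such a ratio is of reads, not per length, so only its difference between days can be read. PSMB9 over PSMB6 was -1.93, -2.68, -2.33 and -1.60 at day 28, against -3.27, -3.99, -3.34, -4.23 and -3.53 at day 0. All 4 treated ratios lay above all 5 untreated ones, a difference of 1.54 or 2.90-fold, with an exact two-sided permutation p of 0.0159, the smallest that 126 splits allow (0.0476 adjusted over 3 pairs). That test exchanges all 9 libraries, although clone 7 had the lowest ratios within each day. With clone as a replicate block, where days are exchanged only within a clone, the difference was 1.43 and the exact p 0.0167, the smallest that 60 splits allow, or 0.05 adjusted over 3 pairs, which does not pass. The difference held in G1 (1.32), S (1.45) and G2 (1.93), and was 1.43 in clone 1 alone, where the exact p of 0.1 is the smallest possible. PSMB10 over PSMB7 was -2.05, -0.91, -1.63 and -2.49 at day 28, against -2.37, -3.17, -2.05, -3.49 and -2.81 at day 0. That difference of 1.01 did not pass (exact permutation p = 0.0635, adjusted 0.0952) and leaned on clone 7, since it was 0.35 in clone 1 alone. The unadjusted exact p was 0.0357 without the day 28 G2 library (difference 1.25) and 0.0159 over the narrowest annotated spans (2.02). With clone as a replicate block the exact permutation p was 0.0667 (difference 0.99), or 0.1 adjusted over the 3 pairs, which does not pass. The p-values without the day 28 G2 library and over the narrowest spans were not adjusted over the pairs. They do not show whether the difference would pass. PSMB8 over PSMB5 was -1.15, -1.37, -0.66 and -0.94 at day 28, against -1.28, -0.89, -1.49, -1.07 and -1.58 at day 0. The days overlapped and the difference of 0.23 did not pass (exact permutation p = 0.286). It was 0.53 in clone 1 alone (exact p = 0.1, the smallest possible), 1.32 over the narrowest spans (exact p = 0.0635) and 0.25 with clone as a replicate block (exact p = 0.267). At the caspase-like site, then, the constitutive gene fell and the immunoproteasome gene was not called in either direction.

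**Figure D2:**
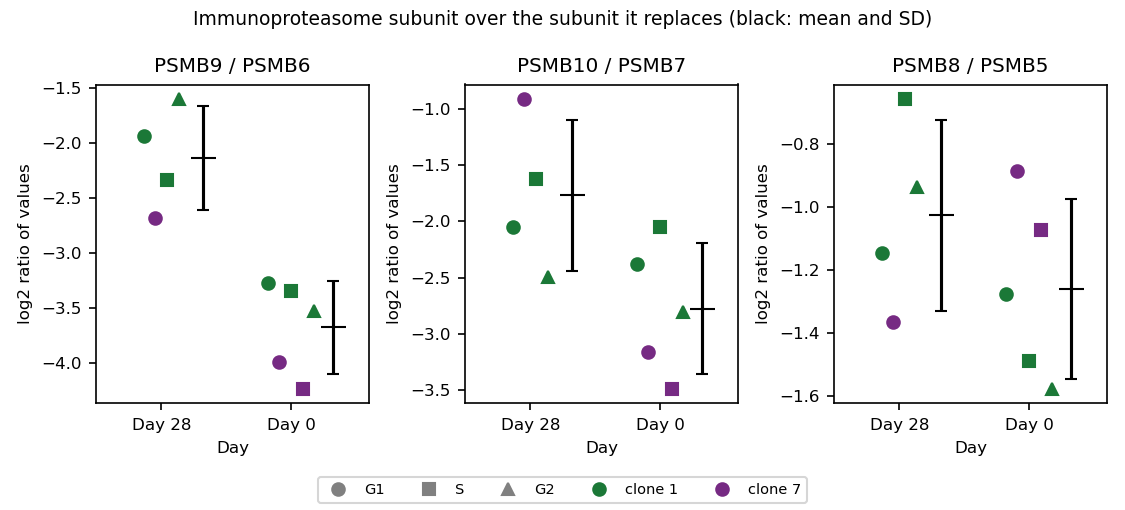
Log2 ratio of each immunoproteasome subunit to the subunit it replaces, day 28 left of day 0, with shapes for phase, colours for clone, and the mean and SD in black. For PSMB9 over PSMB6 the lowest day 28 ratio (-2.68) lies above the highest day 0 ratio (-3.27), while the days overlap in the other panels.

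PSMB11, the cutting subunit of the thymus, had 1 read in 1 of the 9 libraries. PSMA8, an alpha subunit used in the testis, had 8, 6, 26 and 67 reads at day 28, against 6, 0, 1, 0 and 0 reads at day 0. At the density seen over olfactory receptor genes its 58.4 kb span would hold 14.9, 16.1, 30.9 and 68.8 reads at day 28, and 13.8, 2.54, 3.10, 2.11 and 9.16 at day 0. PSMA8 thus lay below that density in every library, and no fold change is given for either gene.

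In the 19S cap, the 6 ATPases that unfold and thread the substrate all fell, by a median of 1.07. PSMC1, whose tail docks into the alpha ring and opens its gate, had 12.27, 13.19, 12.35 and 12.50 at day 28, against 13.87, 14.54, 13.81, 14.55 and 14.31 at day 0. Clone 7 stood above clone 1 at both days, and all treated libraries lay below all untreated ones (log2 fold change -1.66, limma SE 0.25, adjusted p = 0.000341). PSMC2 had log2 values of 13.72, 13.81, 14.07 and 13.94 at day 28, against 14.91, 15.05, 14.997, 15.25 and 15.49 at day 0, with little spread within a day (log2 fold change -1.24, SE 0.17, adjusted p = 0.000205). PSMC5 had log2 values of 14.59, 14.61, 14.97 and 15.18 at day 28, against 15.35, 15.89, 15.29, 15.72 and 15.75 at day 0, the smallest fall of the ring (log2 fold change -0.77, SE 0.20, adjusted p = 0.00755). PSMC6 had log2 values of 12.76, 13.38, 12.87 and 12.66 at day 28, against 13.53, 13.73, 13.62, 13.95 and 14.24 at day 0, again without overlap (log2 fold change -0.90, SE 0.22, adjusted p = 0.00519). PSMC3 and PSMC4 lay between, at -1.01 and -1.13. Under quantile scaling PSMC3 and PSMC5 were no longer called (-0.42 with adjusted p = 0.148 and -0.24 with adjusted p = 0.295).

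Of the base subunits that are no ATPases, PSMD2, the large scaffold that receives ubiquitin shuttles and the deubiquitinase USP14, fell most. PSMD2 had log2 values of 14.73, 15.12, 15.37 and 15.28 at day 28, against 17.07, 17.39, 17.12, 17.47 and 17.13 at day 0. Each treated library lay well below each untreated one, and the level was 23.6% of untreated (log2 fold change -2.08, limma SE 0.20, adjusted p = 3.80e-05). PSMD4, a ubiquitin receptor, had 13.98, 14.93, 14.47 and 14.65 at day 28, against 14.99, 15.28, 14.92, 15.35 and 15.25 at day 0. G1 clone 7 reached into the untreated range (log2 fold change -0.66, limma SE 0.22, adjusted p = 0.0252). The call was lost on leaving out any 1 of 6 libraries (adjusted p 0.0536 to 0.0759). These were day 28 G1 clone 1, S and G2 and day 0 G1 clone 7, S clone 7 and G2. Leaving out either G2 library gives the same fold change, here and below, as the phase term then fits the other one fully. The PSMD4 call was also lost under quantile scaling (-0.21), with voom (-0.38), with the span trend removed (-0.45) and over the narrowest span (-0.55), with limma adjusted p of 0.110 to 0.398. PSMD1, the scaffold that holds the receptor ADRM1, had 14.35, 15.67, 14.85 and 14.98 at day 28, against 15.08, 15.88, 15.19, 15.47 and 15.85 at day 0. The days overlapped through G1 clone 7 and the gene was not called (log2 fold change -0.57, SE 0.28, adjusted p = 0.106); without that library it was -0.82 (adjusted p = 0.0138). PSMD1 was also called lower in clone 1 alone (-0.64, limma adjusted p = 0.0208), with the span trend removed (-1.27, adjusted p = 0.00269) and over its narrowest span (-1.98, adjusted p = 0.00307), while it was 0.0036 under quantile scaling.

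All 8 lid subunits fell, by a median of 1.19. PSMD14, the enzyme that strips ubiquitin from the substrate, had 11.95, 12.21, 12.74 and 13.17 at day 28, against 13.94, 13.83, 13.94, 14.17 and 14.62 at day 0. G1 was lowest at day 28, and no library crossed (log2 fold change -1.57, limma SE 0.18, adjusted p = 7.22e-05). PSMD12, a structural lid subunit, had 12.47, 12.47, 13.19 and 13.004 at day 28, against 14.07, 13.70, 14.35, 14.16 and 14.62 at day 0, with no overlap (log2 fold change -1.35, SE 0.18, adjusted p = 0.000159); over its narrowest span it was -0.41 and not called (adjusted p = 0.420). PSMD7, the partner of PSMD14, had 12.75, 12.74, 13.83 and 13.78 at day 28, against 13.90, 13.38, 14.08, 13.77 and 14.63 at day 0. Here S and G2 at day 28 lay within the untreated range (log2 fold change -0.64, SE 0.21, adjusted p = 0.0214), and the call was lost without day 28 G1 clone 1 or G2 or without day 0 G1 clone 1 or G2 (adjusted p 0.0563 to 0.0791). Over the narrowest annotated span of PSMD7 the sign turned, to 0.47 (limma, adjusted p = 0.180), and the call was lost under quantile scaling (-0.39), with voom (-0.38) and with the span trend removed (-0.45), with adjusted p of 0.0779 to 0.169. PSMD3, another structural subunit, had 13.88, 14.34, 14.23 and 14.52 at day 28, against 14.74, 14.93, 14.76, 15.29 and 14.996 at day 0, a smaller but complete separation (log2 fold change -0.69, SE 0.19, adjusted p = 0.00995). Its call was lost under quantile scaling (-0.28, adjusted p = 0.203), with voom (-0.41, adjusted p = 0.0780) and with the span trend removed (-0.49, adjusted p = 0.0537). The others, PSMD6, PSMD8, PSMD11 and PSMD13, ranged from -1.27 to -1.15.

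Chaperones that assemble the base were mixed. PSMD10, also known as gankyrin, had 10.88, 10.59, 11.53 and 12.18 at day 28, against 12.54, 12.07, 12.61, 12.74 and 13.17 at day 0. The order at day 28 was G1 below S below G2, and only G2 reached the untreated range (log2 fold change -1.30, limma SE 0.20, adjusted p = 0.000340). PSMD9 had log2 values of 11.34, 11.94, 11.58 and 11.55 at day 28, against 12.25, 12.15, 12.18, 12.05 and 12.20 at day 0, a small gap without overlap (log2 fold change -0.58, SE 0.19, adjusted p = 0.0233), whose call was lost without day 28 G1 clone 1, S or G2 or without day 0 S clone 1 or G2 (adjusted p 0.0540 to 0.0689) or with voom (-0.32, adjusted p = 0.189). PSMD5 had log2 values of 12.62, 11.88, 12.08 and 12.12 at day 28, against 12.38, 12.29, 12.66, 12.65 and 13.13 at day 0. Day 28 G1 clone 1 lay inside the untreated range and the gene was not called (log2 fold change -0.45, SE 0.22, adjusted p = 0.107); without that library it was -0.65 (adjusted p = 0.0200).

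**Figure D3:**
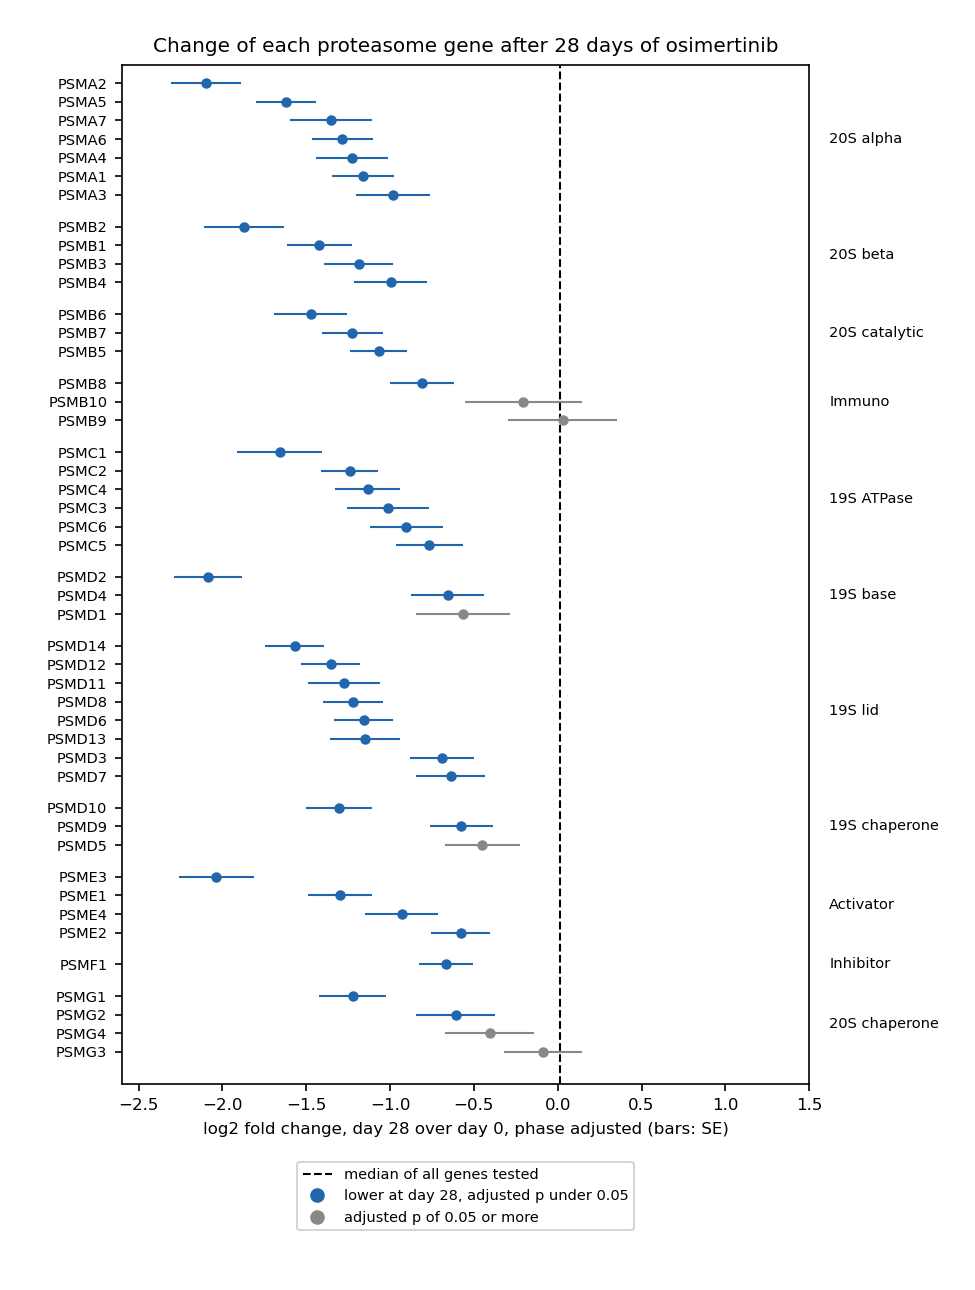
Log2 fold change of each tested proteasome gene, day 28 over day 0, adjusted for phase, with its standard error, grouped by role (blue called lower, grey not called). PSMA2, PSMD2 and PSME3 lie near -2, and the dashed line marks the median of all genes tested (0.01).

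All 4 activators fell. PSME3, which forms a cap found mainly in the nucleus, had 10.29, 10.48, 11.51 and 10.59 at day 28, against 12.83, 12.37, 13.09, 12.81 and 13.07 at day 0. S stood highest at day 28 yet far below all untreated libraries (log2 fold change -2.04, 4.11-fold lower, limma SE 0.22, adjusted p = 6.35e-05). PSME1 and PSME2 form an interferon-inducible ring together. PSME1 had log2 values of 12.50, 12.76, 12.86 and 13.49 at day 28, against 14.14, 14.42, 13.89, 13.98 and 14.38 at day 0, without overlap (log2 fold change -1.30, SE 0.19, adjusted p = 0.000288). PSME2 had log2 values of 13.18, 13.39, 13.42 and 14.14 at day 28, against 14.05, 14.17, 13.76, 13.97 and 14.41 at day 0, where G2 at day 28 lay among the untreated values (log2 fold change -0.58, SE 0.18, adjusted p = 0.0155). The PSME2 call was not made within clone 1 alone (-0.49, adjusted p = 0.0710), under quantile scaling (-0.31), with voom (-0.30), with the span trend removed (-0.30) or over the narrowest span (-0.10), where the limma adjusted p was 0.152 to 0.858. PSME4, a large activator that caps the core as a single chain, had 12.40, 13.12, 12.17 and 12.59 at day 28, against 13.54, 13.18, 13.63, 13.42 and 13.62 at day 0. The gap to G1 clone 7 was small (log2 fold change -0.93, SE 0.22, adjusted p = 0.00409), and over its narrowest annotated span, at the 5′ end, the change was -0.01 (adjusted p = 0.976). PSMF1, which inhibits the core in the test tube, had 12.49, 12.33, 12.44 and 12.50 at day 28, against 13.14, 12.99, 13.07, 13.01 and 13.29 at day 0. Its treated values were the tightest among the tested members, and it fell 1.59-fold (log2 fold change -0.67, SE 0.16, adjusted p = 0.00500); with voom it was -0.41 (adjusted p = 0.0627).

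The chaperones of the core work in pairs, PSMG1 with PSMG2 and PSMG3 with PSMG4. PSMG1 had log2 values of 10.85, 10.72, 11.44 and 10.93 at day 28, against 12.34, 12.11, 12.16, 12.21 and 12.36 at day 0, with a clear gap (log2 fold change -1.22, limma SE 0.20, adjusted p = 0.000499). PSMG2 had log2 values of 13.10, 12.52, 13.53 and 12.61 at day 28, against 13.31, 13.43, 13.43, 13.73 and 14.06 at day 0, with day 28 S in the untreated range. Its call (log2 fold change -0.61, SE 0.24, adjusted p = 0.0453) was lost without day 28 G1 clone 7 or G2 or without day 0 G1 clone 1, G1 clone 7, S clone 7 or G2 (adjusted p 0.0639 to 0.220), and its log2 fold change was -0.36 without either G2 library. The PSMG2 call was also lost in clone 1 alone (-0.52), under quantile scaling (-0.39) and with voom (-0.34), with limma adjusted p of 0.0977 to 0.210. PSMG3 had log2 values of 11.33, 12.07, 12.48 and 11.85 at day 28, against 11.90, 12.40, 12.16, 12.34 and 11.63 at day 0. PSMG4 had log2 values of 10.45, 10.40, 10.15 and 11.48 at day 28, against 11.08, 11.42, 10.66, 10.81 and 10.82 at day 0. Both overlapped between days and neither was called (PSMG3 log2 fold change -0.09, SE 0.23, adjusted p = 0.772; PSMG4 -0.41, SE 0.26, adjusted p = 0.209), although PSMG4 was called at -0.73 without either G2 library (adjusted p 0.0265 and 0.0274) and at -1.24 over its narrowest span (adjusted p = 0.00372). Of the genes that fit the pattern by name only, PSMC3IP, a factor of meiotic recombination, was at 0.45 (SE 0.35, adjusted p = 0.295), and PSME3IP1, a partner of PSME3, was at -0.33 (SE 0.17, adjusted p = 0.121). Neither was called in this model, with phase as a term. In S and G2 cells alone, where each phase had 1 treated library, 1 of them was at 1.28 and the other at -0.45.

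By phase, in G1 cells alone 32 of the 46 genes fell and none rose, against 19.2% of all genes called lower and 19.8% higher. The largest falls were those of PSMD2 (-2.31), PSMA2 (-2.30) and PSME3 (-2.22). Without day 28 G1 clone 1, only 18 were called. In S and G2 cells 30 fell and none rose, against 13.8% of all genes called lower and 15.8% higher, led by PSME3 (-1.96), PSMA2 (-1.91) and PSMD2 (-1.89). Without day 0 S clone 7, 18 were called. The 2 comparisons use different libraries. S and G2 at day 28 were measured in clone 1 only and are set against day 0 libraries that include clone 7, whereas G1 has both clones at both days. Tested directly, the difference between them (the day by phase interaction) was called for none of the 46 by limma, for 2 at an unadjusted p under 0.05 and for none with voom, and 0.0% of all genes were called.

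Within a day, no member was called between phases. At day 0, S and G2 minus G1 gave none (limma; 3 at an unadjusted p under 0.05; none with voom; 0.0% of all genes called in either direction), with a median of 0.11. At day 28 it gave none either (limma; 11 at an unadjusted p under 0.05; none with voom), against 1.85% of all genes called lower and 2.9% higher. The median there was 0.35, with 35 of 46 above 0, and with clone as a replicate block 2 members were called higher. PSMB9 (1.22), PSMD10 (1.12) and PSMD7 (1.05) had the largest values in S and G2 over G1 at day 28, named after their values were seen, with adjusted p of 0.129, 0.064 and 0.0706 by limma. Each rests on 1 library of S and 1 of G2. The G2 markers CCNB1, CDC20 and PLK1 had a median of 2.36 at day 0 and 3.85 at day 28. The 0.0% at day 0 takes them in, so no call there does not mean no difference. In sum, the S markers CCNE2, MCM5 and PCNA took 889 and 865 reads per M in day 0 G1 and 798 and 667 in day 0 S, so they did not mark S there. At day 28 they took 268 and 132 in G1 and 665 in S. Clone 7 minus clone 1, adjusted for day and phase, was called for no member (limma; 7 at an unadjusted p under 0.05; none with voom), against 0.226% of all genes lower and 0.388% higher.

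Because the values cover whole coding spans, the 5′ and 3′ parts of a gene could be compared where the annotation holds a shorter span from the same start. This was possible for 35 proteasome genes with at least 10 reads in each part of every library. The 5′ part fell by a median of 1.47 on the log2 scale at day 28 and the 3′ part by 0.86, with a median difference of -0.59. The 5′ to 3′ ratio was lower at day 28 in 30 of the 35 genes, against 63.6% of the 6219 genes that allowed the same comparison, whose median difference was -0.25. In PSMF1 the 5′ part, 16.5 kb of a span of 46.3 kb, was at -2.28 and the 3′ part at -0.45, and in PSMD2 the 5′ part, 3.43 of 9.62 kb, was at -2.55 and the 3′ part at -2.03. PSME4 ran the other way, at -0.01 and -0.99. The 5′ parts differed widely in length, and that of PSMA1 (-2.77, with the 3′ part at -1.17) held only 0.043 of 12.8 kb. The 3′ part alone was lower in 33 of 35 genes, against 3260 of the 6219. It was without overlap between days in 19, while 16.9% of the 6219 had no overlap with day 28 below. RNA integrity was not given, and its part in the result was not tested.

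**Figure D4:**
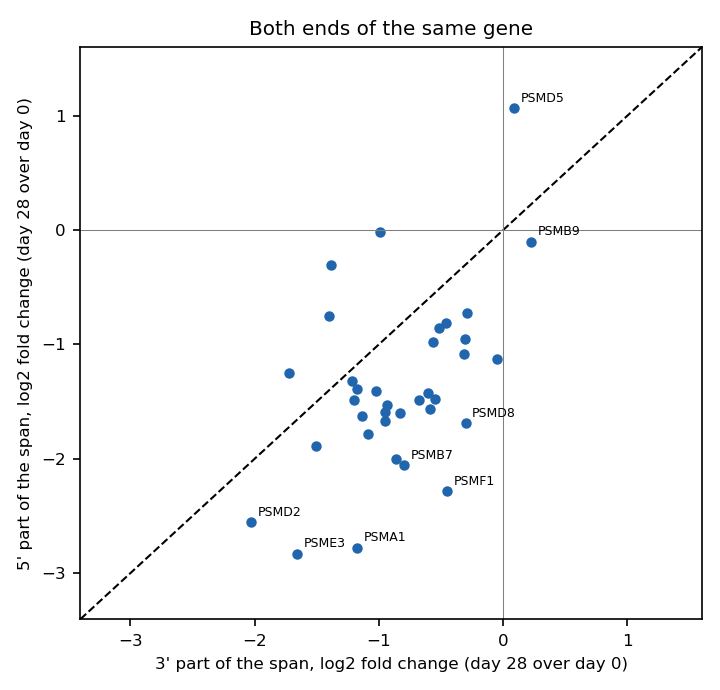
Log2 fold change, day 28 over day 0, of the 5′ part of each of 35 proteasome genes (vertical axis) against that of its 3′ part (horizontal axis), with the line of equality dashed. In 30 of the 35 the 5′ part fell more, as the points below the line show, and 33 lie left of 0 for the 3′ part.

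Genes that work with the proteasome but carry other names were taken from lists by function, and their counts are to be read against the 26.6% of all genes called lower and the 28.5% called higher. Of the 4 that encode further parts of it, 3 fell: POMP, the maturation factor of the core (log2 fold change -1.60, limma SE 0.20, adjusted p = 0.000143), ADRM1, a ubiquitin receptor of the cap (-0.86, SE 0.22, adjusted p = 0.00737), and SEM1, the smallest lid subunit (-0.63, SE 0.20, adjusted p = 0.0190). POMP had log2 values of 12.31, 13.12, 12.52 and 13.13 at day 28, against 14.23, 14.54, 13.88, 14.17 and 14.71 at day 0, with no overlap, and the fourth, PAAF1, was not called (0.53, SE 0.21, adjusted p = 0.0514). In G1 cells alone, 3 of the 4 were called lower and 1 higher (0.96), with limma adjusted p up to 0.0349. There, 19.2% of all genes were called lower and 19.8% higher. Of 9 enzymes and tethers bound to the proteasome, 5 fell and 1 rose, with a list median of -0.66 against 0.01 for all genes. The deubiquitinases of the cap, UCHL5 (-1.53, SE 0.24, adjusted p = 0.000425) and USP14 (-0.94, SE 0.17, adjusted p = 0.00109), and the redox protein TXNL1 (-1.26, SE 0.18, adjusted p = 0.000236) fell. The ubiquitin ligase UBE3C was not called (0.33, SE 0.18, adjusted p = 0.138). ZFAND5, which stimulates the proteasome, was the member that rose (0.71, SE 0.17, adjusted p = 0.00447).

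Of the ubiquitin genes, RPS27A (-1.41, limma SE 0.24, adjusted p = 0.000607) and UBB (-1.15, SE 0.20, adjusted p = 0.000735) fell. Of the enzymes that activate ubiquitin, UBA1 fell (-0.58, SE 0.21, adjusted p = 0.0324) and UBA6 rose (1.12, SE 0.20, adjusted p = 0.000783). UBA6 had log2 values of 12.41, 12.27, 11.99 and 11.34 at day 28, against 10.87, 11.10, 10.91, 10.90 and 10.64 at day 0, above every untreated library in all 4. RPS27A encodes ubiquitin fused to a ribosomal protein and UBB a chain of ubiquitin repeats, and both have near-identical copies, so their counts are uncertain. Of 6 shuttle proteins that bring substrates to the proteasome, 4 fell, led by UBQLN1 (-1.23), NUB1 (-0.99) and RAD23B (-0.95).

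Among 9 genes around NFE2L1, 2 fell, 2 rose and 5 were not called, shares below those of all genes (26.6% lower and 28.5% higher). NFE2L1 had log2 values of 11.90, 12.13, 12.12 and 11.89 at day 28, against 12.87, 11.50, 13.15, 12.51 and 12.51 at day 0. It was not called (log2 fold change -0.44, limma SE 0.28, adjusted p = 0.203). The treated values lay within the untreated range only through day 0 G1 clone 7 (11.50), the shallowest library, and below every other untreated library. In clone 7, G1 was higher at day 28 (12.13) than at day 0 (11.50). VCP, which draws NFE2L1 and many ubiquitinated proteins from membranes, fell (-1.05, SE 0.18, adjusted p = 0.000600). The small MAF protein MAFF, a DNA-binding partner, fell (-1.73, SE 0.36, adjusted p = 0.00218), its relative MAFG rose (0.93, SE 0.37, adjusted p = 0.0485), and BACH1, a repressor at antioxidant response elements, rose (1.03, SE 0.20, adjusted p = 0.00155). DDI2, which cleaves NFE2L1, was at 0.62 (SE 0.31, adjusted p = 0.108). The proteins were not measured.

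Of 8 genes of MHC class I processing, which uses the peptides made by the immunoproteasome, 2 fell, 1 rose and 5 were not called, which is no more than among all genes (26.6% lower and 28.5% higher). The aminopeptidase ERAP2 (-0.96, limma SE 0.26, adjusted p = 0.00927) and B2M, the light chain of MHC class I (-0.56, SE 0.21, adjusted p = 0.0401), fell. TAP1, a subunit of the peptide transporter, rose narrowly (0.46, SE 0.18, adjusted p = 0.0496), and its partner TAP2 was not called (0.39, SE 0.18, adjusted p = 0.0879). The interferon-response regulators IRF1 (0.00) and NLRC5 (-0.05) were not called.

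**Figure D5:**
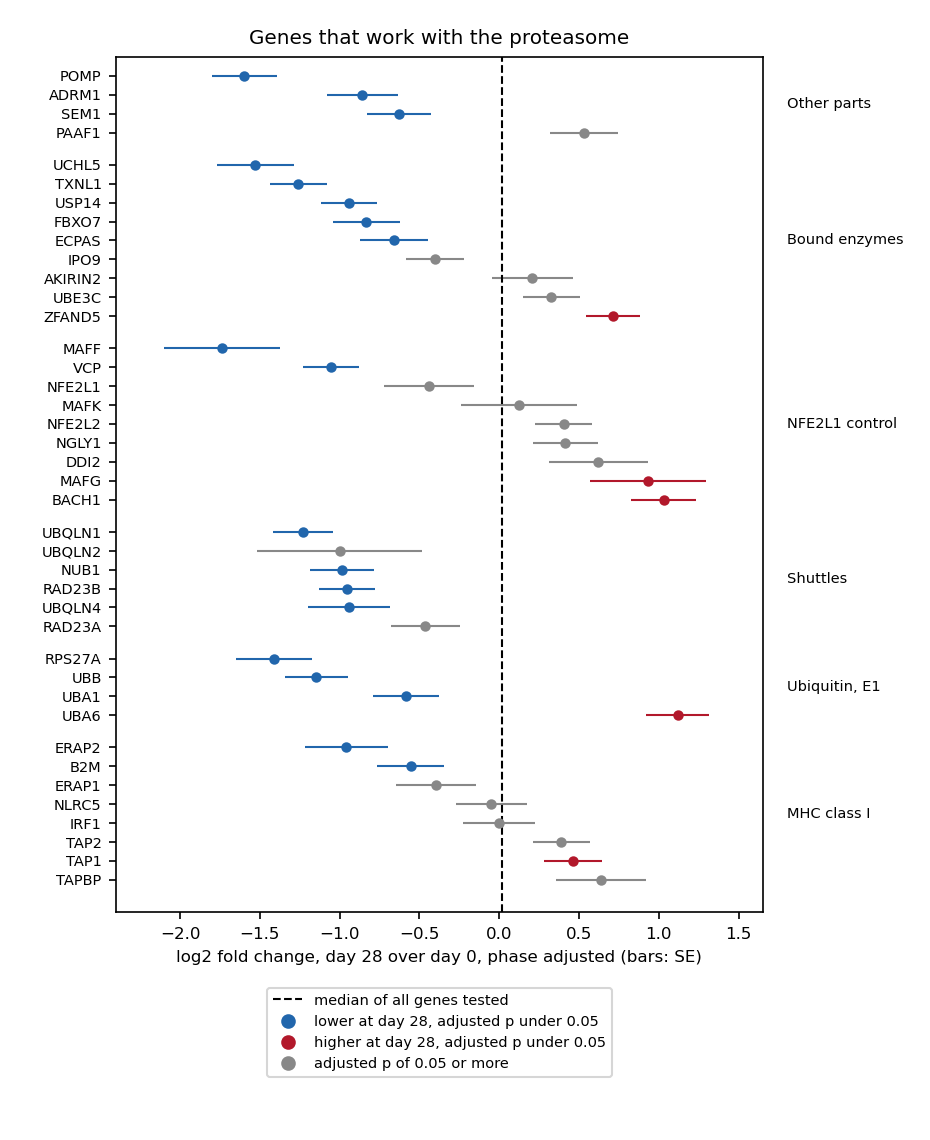
Log2 fold change, day 28 over day 0, adjusted for phase, of genes that work with the proteasome, with standard errors, grouped by function (blue called lower, red called higher, grey not called). POMP, UCHL5 and MAFF lie among the lowest, and BACH1 (1.03) and UBA6 (1.12) among the highest.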

How the data were processed

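RNA was measured in 9 libraries of sorted PC9 cells. Log2 values of 80037 coding transcripts make up the table the authors deposited. Per the labels' protocols, libraries of poly(A) RNA kept the strand, had 10 to 18 PCR cycles and gave single-end reads of 75 bp. Per the submitters' processing notes, HISAT2 2.1.0, GRCh38 and DESeq2 (no version) were used; the counter and the scaling are not given in the sources used here. Checked on the values, each library's entries are log2 of whole reads times 1 factor, with 0.9 reads entered for none (100% of values up to 1000 reads within 0.05 of whole). They cover coding spans with introns and keep strands apart, so reads in untranslated regions are not in them, and unspliced RNA is. Depths were 8.83 to 108.7 M reads (M for mega).

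Members and gene lists were chosen with earlier results of these data known. Each gene kept the transcript with the highest mean. Log2 values were made linear, 1 was added, and log2 was taken again, so fold changes of low genes are understated. Genes with a mean log2 of at least 7.01 (10 reads in the shallowest library) were tested, 12385 of 20435. Tests used limma 3.58.1 (R 4.3.3, trended eBayes, Benjamini-Hochberg), tested first on simulated data. The main model had day and phase as terms; the others used means of the 6 day-by-phase groups. Ratios were compared by exact permutation. Single-library groups are assumed to vary like the rest. Per-library values are given for the catalytic and immunoproteasome subunits, the activators, PSMF1, the 2 largest and 2 smallest changes of every other role and members that ran against their role; other lists name preset genes and up to 3 called genes with the largest change, and genes called against their list were added after their values were seen. Clone numbers mark the same clone in both days, so clone pairs the samples. Deviations of clone 7 from clone 1 correlated across genes by 0.65 between day 0 G1 and day 0 S. Across days they correlated by 0.12 (day 0 G1 with day 28 G1) and 0.30 (day 0 S with day 28 G1). The main model has no clone term, and counts with clone as a replicate block are given below. Overlapping genes of 1 strand and processed copies share reads. Promoters were matched by symbol, 42 of 48. PSMA7, PSMB1, PSMB6, PSMB7, PSMD4 and PSMG3 have no window. Some genes of the lists by function are not reported here.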

Additional observations from a re-analysis of the deposited data

Results flagged for a closer look

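Of 98 sets of values checked for a library far from the others (each member at each day and in the 3 ratios), 2 stood out, and chance alone would pick about 1 in 20 such sets. In PSMA3, an alpha subunit of the core, the day 0 G2 library had a log2 value of 15.35, while the other untreated libraries lay between 14.70 and 14.87. In PSMB3, a beta subunit that does not cut, day 28 G1 clone 1 had 13.48, while the other treated libraries lay between 14.04 and 14.13. Both genes stayed called lower without the library concerned.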

How the results depend on the processing

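Of the 40 genes called lower at day 28, 28 were called in each of the 21 alternatives that tested them. On leaving out any 1 of the 9 libraries, 36 stayed called. The runs without day 0 G2 and without day 28 G2 give the same fold changes, so they are not separate checks. The count was 37 to 40 on leaving out 1 library, 32 under quantile scaling, 33 with voom or the narrowest spans (42 tested) and 37 with the span trend removed. These settings moved the median of all genes to -0.11, 0.28, -0.39 and -0.10, while the members' median was -0.83, -0.87, -1.41 and -0.99. Leaving out 1 library gave 18 to 32 calls in G1 and 18 to 30 in S and G2. For S and G2 over G1 at day 28, where none were called, quantile scaling gave 5, no filter 1 and clone as a replicate block 2; the cause was not tested. With the block, 40, 37 and 32 genes were called lower in all cells, in G1, and in S and G2, and no other count moved by over 1.5 times. For the 3 ratios the block is given beside them. Changes of sign touched mainly genes that were not called. PSMB9 was -0.0036 by median-of-ratios scaling, -0.16 under quantile scaling, -0.091 with the block, -0.10 over the narrowest span and -0.21 to 0.31 on leaving out 1 library. PSMB10 was 0.0060 with voom, 0.10 with the span trend removed and -0.48 to 0.047 on leaving out 1. PSMG3 was 0.24 with voom, 0.23 with the span trend removed and -0.23 to 0.11 on leaving out 1. PSMD1 was 0.0036 under quantile scaling, and PSMD7, called lower, was 0.47 (adjusted p = 0.180) over its narrowest span.

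Some alternatives gave no value: contrasts of S and G2 without a single-library group, clone 1 alone for group means (no residual degrees of freedom) and the block for the clone comparison. The 9 libraries of 2 clones, with S and G2 at day 28 and G2 at day 0 measured once each, limit every statement on phase, and the shallowest library sets the counting error of low genes.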

Other observations

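Several proteasome genes are neighbours in the genome (GRCh38), and their values at day 28 differ. On chromosome 6, PSMB8 (32840959 to 32844413, minus strand), TAP1 (32845431 to 32853636, minus) and PSMB9 (32854230 to 32859532, plus) follow each other inside the MHC region, with TAP2 (32822289 to 32838233, minus) beside them. Their log2 fold changes were -0.81 for PSMB8, called lower, 0.46 for TAP1, called higher, and 0.03 for PSMB9 and 0.39 for TAP2, not called (limma). On chromosome 14, PSME1 (24136263 to 24138816, plus) and PSME2 (24143409 to 24146581, minus) lie side by side, at -1.30 and -0.58, both called lower. Chromosome 14 holds 8 and chromosome 17 holds 7 of the 48 genes, which lie on 17 chromosomes in all. These are values without a test of the differences between neighbours.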
